A study of Mus musculus with 16 samples.

Results

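The genes described here are 10 transcripts of the macrophage lineage and of the signal that maintains it: the ligands Csf1 and Il34, their shared receptor gene Csf1r, and the macrophage markers Adgre1, Cd68, Mrc1, Cd163, Lyz2, C1qa and C1qb. They were taken by symbol from the 25719 listed mouse genes, and all 10 were found and tested. RNA of mouse tail tendon fascicles, the thin strands that can be drawn from the tail, was compared between 8 wild type libraries and 8 libraries of ScxCre;Vhlf/f mice, called knockout here. In the knockout, Cre driven by Scx, a gene of tendon cells, acts on the floxed Vhl gene, so that the deletion is aimed at tendon cells and not at macrophages. The labels give neither the age, strain or sex of the mice nor whether the wild type animals were littermates that carried Cre or floxed alleles, and they do not say whether each library came from 1 mouse. They give the cell type as all cells of the tissue, so in these bulk libraries fewer cells of a type and less RNA per cell cannot be told apart.

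Macrophages are phagocytic leukocytes that live in most tissues. Their survival and growth depend on the receptor tyrosine kinase CSF1R, which is bound by the cytokine CSF1 and by a second ligand of unrelated sequence, IL-34; both ligands are usually made by neighbouring cells such as fibroblasts, endothelium or epithelium. In tendon, resident macrophages lie among the collagen fibres and around vessels. The VHL protein marks hydroxylated HIF1α for degradation, and the comparison asks which of these transcripts differ when it is deleted in tendon cells.

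Total counts ran from 10792900 to 16379401 in the wild type and from 10488355 to 18753254 in the knockout. Vhl lay between 14.1 and 25.8 CPM in the wild type and between 7.51 and 10.9 CPM in the knockout, so each library followed its label (CPM, counts-per-million, on library sizes scaled by the trimmed mean of M-values, TMM). Tendon markers were abundant in every library: the summed level of 8 of them ran from 130100 to 379500 CPM in the wild type and from 77410 to 180900 CPM in the knockout. Skeletal muscle markers varied widely within both genotypes, from 53.2 to 4769 CPM and from 167.6 to 9441 CPM in sum, and were highest in knockout libraries 6, 7 and 8 and in wild type library 5. Scx was far above the other libraries in wild type library 8 and knockout libraries 5, 6 and 8. The 7 endothelial markers tested of 10 had 6 higher and none lower in the knockout, with summed levels of 32.8 to 55.6 CPM in the wild type and 57.4 to 535.7 CPM in the knockout. All 5 tested of 7 erythroid markers were higher, at 15.1 to 50.8 CPM against 77.8 to 562.6 CPM in sum. Among all tested genes 25.6% were called higher and 22.7% lower, by the test given below. The part of vessels, blood and muscle in the results below was not tested except where a value is given.

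Genes were called where the adjusted p was under 0.05 (edgeR quasi-likelihood test, Benjamini-Hochberg over 14803 genes tested). Called were 48.3% of all tested genes, 25.6% higher and 22.7% lower in the knockout, so that 5 called genes among these 10 is near the share of all genes. Lyz2, Adgre1 and Cd163 rose, Il34 and Csf1 fell, and Csf1r, Cd68, Mrc1, C1qa and C1qb did not pass the threshold. At an unadjusted p under 0.05 they were 6 of 10, against 54.4% of all tested genes. Only Il34, 1 of the 10, had groups without overlap, against 19.4% of all tested genes. The median log2 fold change was 0.06 over the 10 and 0.02 over all tested genes. The scaling of libraries moved these counts. TMM factors were 0.826 to 1.07 in the wild type and 1.06 to 1.17 in the knockout. With total counts and no scaling factor the median of all tested genes was 0.32, the calls over all genes were 8270 higher and 1415 lower against 3792 and 3359, and 7 of these 10 genes were called higher and 1 lower.

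**Figure D1:**
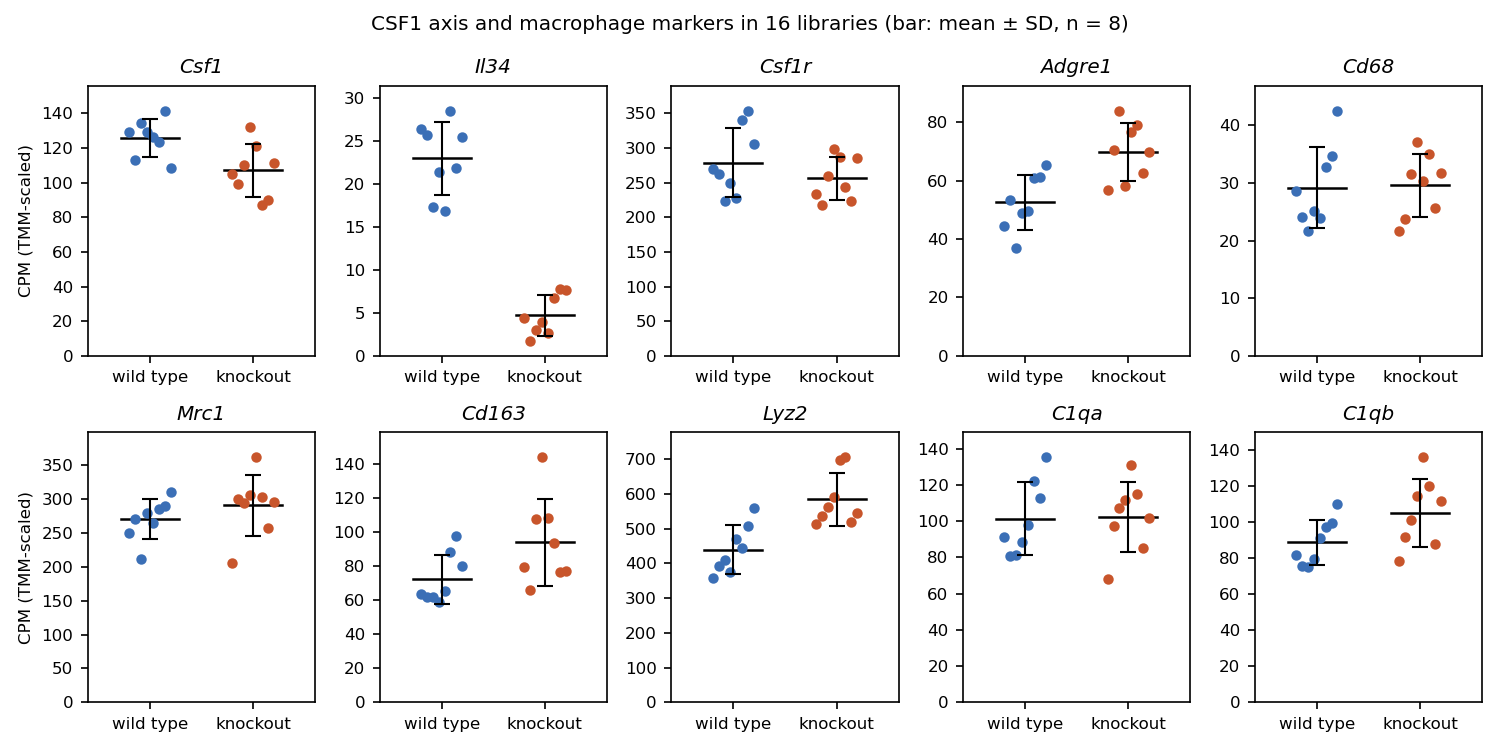
Level of each of the 10 genes in CPM (TMM-scaled) in each of 8 wild type and 8 knockout libraries; bars are mean ± SD. Il34 is the only 1 of the 10 whose groups do not overlap, between 16.9 and 28.5 CPM in the wild type and between 1.70 and 7.81 CPM in the knockout.

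For 4 members the sequence upstream of the transcription start is shown: Csf1, Lyz2 and Cd163, which were called, and Mrc1, which was not and which holds the most matches to a motif of myeloid promoters. The windows are the 250 bases before the start in RefSeq (GRCm38.p6), 5′ to 3′ along the gene; capitals mark matches to GAGGAA, the core of the box bound by the myeloid factor PU.1, on either strand.
Csf1 promoter (chr3:107760470-107760719, minus strand): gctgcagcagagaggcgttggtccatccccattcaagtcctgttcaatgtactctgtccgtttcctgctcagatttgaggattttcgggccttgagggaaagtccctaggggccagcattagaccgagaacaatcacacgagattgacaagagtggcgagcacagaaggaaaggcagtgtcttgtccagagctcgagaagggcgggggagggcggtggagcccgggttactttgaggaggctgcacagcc
Lyz2 promoter (chr10:117282273-117282522, minus strand): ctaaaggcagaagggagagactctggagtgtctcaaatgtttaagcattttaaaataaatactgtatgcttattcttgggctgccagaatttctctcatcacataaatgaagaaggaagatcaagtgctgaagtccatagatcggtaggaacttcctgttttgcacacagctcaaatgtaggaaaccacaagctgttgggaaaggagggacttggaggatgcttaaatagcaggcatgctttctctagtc
Cd163 promoter (chr6:124304401-124304650, plus strand): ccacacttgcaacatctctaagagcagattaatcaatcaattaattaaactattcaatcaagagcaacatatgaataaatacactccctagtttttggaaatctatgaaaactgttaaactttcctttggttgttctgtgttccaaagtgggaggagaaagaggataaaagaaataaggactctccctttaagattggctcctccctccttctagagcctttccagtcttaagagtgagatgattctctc
Mrc1 promoter (chr2:14229164-14229413, plus strand): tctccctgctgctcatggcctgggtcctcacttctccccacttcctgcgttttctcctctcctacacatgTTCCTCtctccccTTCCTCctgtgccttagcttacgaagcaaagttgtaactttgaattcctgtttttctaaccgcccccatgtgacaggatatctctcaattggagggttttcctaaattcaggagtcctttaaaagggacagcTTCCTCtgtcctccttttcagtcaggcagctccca
Promoter entries were matched for 6 members, these 4 and Cd68 and C1qb. GAGGAA occurred in 3 of the 6, in Mrc1 at 3 places, which begin 180, 167 and 35 bases before the start, and once each in Cd68 and C1qb; 23.3% of all 32851 promoter windows of this length hold it. The core of the hypoxia response element was searched as ACGTG and GCGTG on both strands. Neither occurred in the 6 windows, where 16.6% and 28.2% of all windows hold them.

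Il34, the ligand known from skin Langerhans cells and brain microglia, was the member that changed most. It lay between 16.9 and 28.5 CPM with a median of 23.7 in the wild type, and between 1.70 and 7.81 CPM with a median of 4.19 in the knockout. Every knockout library was below every wild type library. The log2 fold change was -2.26 (SE 0.257; edgeR, adjusted p = 1.25e-06), a fall to 0.209 of the wild type level, and it stayed between -2.41 and -1.94 over 25 alternatives with adjusted p-values of at most 1.99e-05. Counts were low in the knockout, between 20 and 161 per library. Within the knockout, the 3 highest values, 6.69, 7.81 and 7.64 CPM, were those of libraries 6, 7 and 8, which also had the highest sums of endothelial markers (343.7, 535.7 and 369.1 CPM) and of muscle markers. Adding the mean log2 level of the muscle markers to the model gave -2.40 for Il34 (adjusted p = 2.41e-06). Exons of Il34 (ENSMUSG00000031750, chromosome 8) overlap those of Gm15894 and Gm15895 on the other strand in GENCODE M21, and whether counting used strand is not given in the sources used here.

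Csf1 (ENSMUSG00000014599, chromosome 3), the main growth factor of macrophages, was the more abundant ligand and fell by far less. It lay between 108.3 and 141.5 CPM (median 127.6) in the wild type and between 87.1 and 131.9 CPM (median 107.4) in the knockout, where 4 libraries were below the wild type range and 1 was above the wild type median. The log2 fold change was -0.23 (SE 0.0822, 95% interval -0.405 to -0.061; edgeR, adjusted p = 0.0248). The call rests on the scaling and on single libraries: with total counts the value was 0.07 (adjusted p = 0.543), and the adjusted p was 0.0512 once the mean log2 level of the muscle markers was added to the model, and over the threshold too without wild type replicate 7 (0.0501), knockout replicate 6 (0.0519) or knockout replicate 7 (0.0543).

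The balance of the ligands does not depend on library scaling. Per library, counts of Csf1 exceeded those of Il34 by 4.24 to 7.72 times (median 5.46) in wild type libraries and by 11.5 to 57.0 times (median 28.3) in the knockout. The ranges did not overlap, which follows from the fall of Il34 (log2 fold change -2.26), as Csf1 changed by only -0.23. The ratio is therefore not a result apart from that of Il34. The mean log2 ratio was 2.47 ± 0.357 in wild type tissue and 4.65 ± 0.879 in the knockout, a difference of 2.18 (SD, n = 8; two-sided exact permutation test over 12870 assignments, p = 0.000155, the smallest they can give). These ratios are of counts, and Il34 is the shorter transcript. Per kilobase of exon, in CPM, Csf1 was at 23.8 ± 2.03 and Il34 at 11.7 ± 2.19 in the wild type (SD, n = 8).

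Csf1r (ENSMUSG00000024621, chromosome 18), the receptor of both ligands and itself a marker of the lineage, ranged from 223.0 to 354.2 CPM (median 266.4) in the wild type and from 218.5 to 299.4 CPM (median 252.1) in the knockout. The ranges were nearly the same at their lower end. The log2 fold change was -0.12 (SE 0.104, 95% interval -0.339 to 0.0955; edgeR, adjusted p = 0.350), and 0.19 with total counts (adjusted p = 0.0941), in both cases not called. Its exons overlap those of Hmgxb3 on the other strand.

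**Figure D2:**
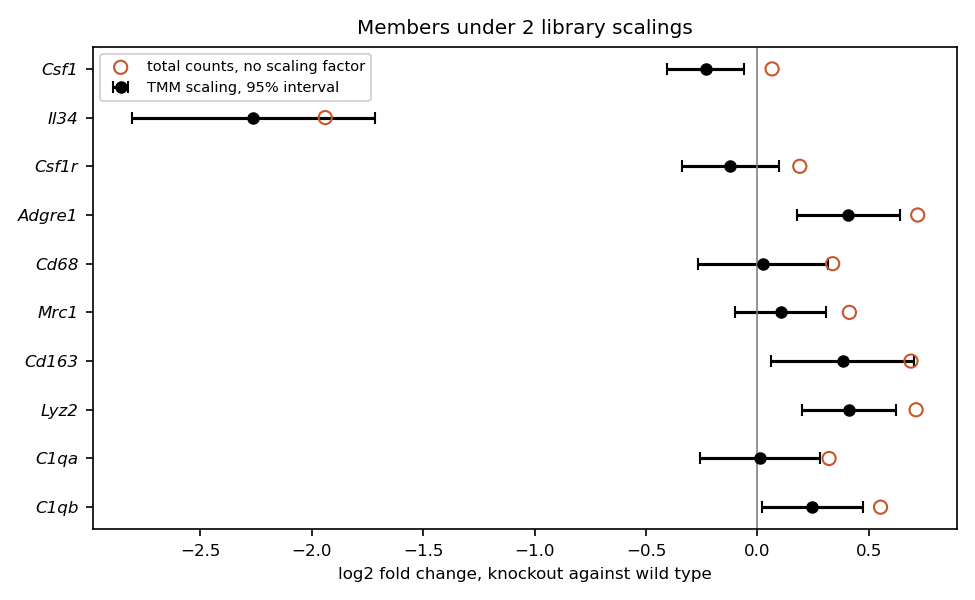
Log2 fold change of each member between knockout and wild type on the TMM scale with its 95% interval (black), and with total counts and no scaling factor (open circles). Il34 is far below 0 on both scales, -2.26 and -1.94, whereas Csf1, -0.23 and 0.07, and Csf1r, -0.12 and 0.19, lie on either side of 0.

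Among the markers, Lyz2 (lysozyme of myeloid cells), Adgre1 (the surface protein F4/80) and Cd163 (the scavenger receptor for haemoglobin bound to haptoglobin) were higher in the knockout. Lyz2 (ENSMUSG00000069516, chromosome 10) lay between 358.6 and 559.3 CPM (median 427.2) in the wild type and between 513.7 and 706.2 CPM (median 554.8) in the knockout. All 8 knockout libraries were above the wild type median and 4 above the whole wild type range. Its log2 fold change was 0.41 (SE 0.101; edgeR, adjusted p = 0.00232). Lyz2 is nearly identical to Lyz1, whose gene lies next to it, so reads may be split between them and its value is uncertain. Lyz1 was at 55.9 CPM in the wild type and 60.05 CPM in the knockout on average (log2 fold change 0.11, adjusted p = 0.585).

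Adgre1 (ENSMUSG00000004730, chromosome 17) lay between 36.8 and 65.3 CPM (median 51.4) in the wild type and between 56.8 and 84.0 CPM (median 70.1) in the knockout, with 5 knockout libraries above the wild type range. It rose by 0.41 on the log2 scale (SE 0.110; edgeR, adjusted p = 0.00452), and was called under all 25 alternatives, as was Lyz2. Cd163 (ENSMUSG00000008845, chromosome 6) lay between 59.2 and 97.4 CPM (median 64.4) in the wild type and between 65.8 and 144.0 CPM (median 86.3) in the knockout, where library 4 was highest. Its log2 fold change was 0.38 (SE 0.152, adjusted p = 0.0457), close to the threshold, and it was not called under 14 of 25 alternatives, among them the removal of 10 of the 16 libraries one at a time. Without knockout replicate 4 it was 0.27 (adjusted p = 0.0989). Ratios to Csf1r within a library need no scaling. Counts of Lyz2 were 1.31 to 2.06 times those of Csf1r in the wild type (median 1.50) and 1.91 to 2.89 times in the knockout (median 2.26). The ratio of Adgre1 to Csf1r went from a median of 0.187 (0.165 to 0.217) to one of 0.273 (0.195 to 0.324), and that of Cd163 from 0.260 (0.234 to 0.286) to 0.359 (0.269 to 0.481). Each of these ranges overlapped at its edge.

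The other markers overlapped widely between the genotypes. Mrc1 (ENSMUSG00000026712, chromosome 2), the mannose receptor CD206, ranged from 211.6 to 310.4 CPM (median 275.0) in the wild type and from 205.8 to 361.4 CPM (median 297.6) in the knockout (log2 fold change 0.10, SE 0.0971, adjusted p = 0.397). Cd68 (ENSMUSG00000018774, chromosome 11), a lysosomal membrane protein of phagocytes, ranged from 21.7 to 42.6 CPM (median 26.9) and from 21.6 to 37.2 CPM (median 30.9), with a log2 difference of 0.02 (SE 0.139, adjusted p = 0.896). Neither was called, and the 95% intervals of the log2 difference, -0.0998 to 0.307 for Mrc1 and -0.267 to 0.317 for Cd68, hold both rises and falls. With total counts, where the median of all tested genes was 0.32, both passed the threshold: Mrc1 was at 0.41 (adjusted p = 0.00100) and Cd68 at 0.34 (adjusted p = 0.0368).

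C1qa (ENSMUSG00000036887) and C1qb (ENSMUSG00000036905), both on chromosome 4, encode chains of C1q, the complement component that macrophages make and that tags debris for uptake. C1qa ranged from 80.8 to 135.4 CPM (median 94.6) in the wild type and from 68.2 to 131.1 CPM (median 104.5) in the knockout (log2 fold change 0.01, SE 0.128; edgeR, adjusted p = 0.943). C1qb ranged from 75.4 to 109.9 CPM (median 86.4) and from 78.3 to 136.2 CPM (median 106.6), with a log2 difference of 0.25 (SE 0.108, adjusted p = 0.0675); it was called under 5 of 25 alternatives. The ratio between the chains shifted slightly and without overlap: C1qa counts were 1.07 to 1.25 times those of C1qb in the wild type and 0.871 to 1.06 times in the knockout. C1qc, the third chain, was 1.19 to 1.47 times C1qb in the wild type and 0.915 to 1.14 times in the knockout.

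Per kilobase of exon, in CPM, the order of the wild type means was Lyz2 (334 ± 52.8), C1qa (97.4 ± 19.3), C1qb (81.6 ± 11.7), Csf1r (48.4 ± 8.58), Mrc1 (42.4 ± 4.64), Csf1 (23.8 ± 2.03), Cd68 (23.2 ± 5.61), Adgre1 (16.2 ± 2.95), Cd163 (13.2 ± 2.64) and Il34 (11.7 ± 2.19; SD, n = 8). Neighbours in this order overlapped within 1 SD of their means, except Lyz2 and C1qa, C1qb and Csf1r, and Mrc1 and Csf1. In the knockout the order was the same at the upper end, with Lyz2 at 444.1 ± 58.3 and C1qa at 98.2 ± 18.5, while Il34 was last at 2.41 ± 1.21.

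The 8 markers, counted as the members without the ligands, rose and fell together from library to library within a genotype. Over the 16 libraries, the deviations of log2 CPM from the genotype mean correlated with a Pearson r of 0.379 to 0.954 over the 28 marker pairs (median 0.682), highest for C1qa and C1qb. The points share their library and its scaling, and no test is given. All 8 markers were above the genotype mean in wild type libraries 6, 7 and 8 and in knockout library 5, and all 8 were below it in wild type library 3 and in knockout libraries 1 and 7. The ligands followed the mean of the markers only weakly. The correlation was 0.168 for Csf1 and 0.055 for Il34, against 0.700 to 0.935 for each marker with the mean of the other 7. By single markers, Csf1 ran from -0.267 with Adgre1 to 0.494 with Cd163, and was at 0.391 with Csf1r. The values with Cd163 and Csf1r are above the lowest marker pair, 0.379.

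**Figure D3:**
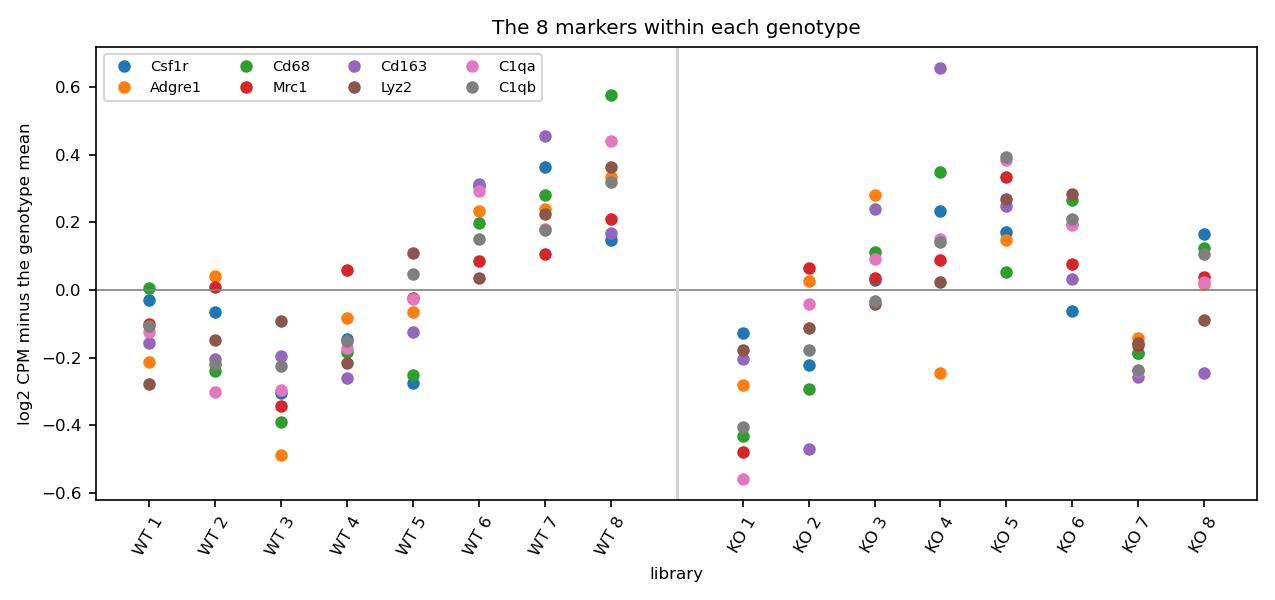
Log2 CPM of the 8 markers minus the mean of their genotype, for each of 8 wild type (WT) and 8 knockout (KO) libraries; each colour is a gene. All 8 lie above 0 in WT 6, WT 7, WT 8 and KO 5 and below 0 in WT 3, KO 1 and KO 7.

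The tested genes whose deviations were most like the mean of the markers were C1qc (Pearson r 0.943), Cyba (0.935), Otulinl (0.935), Tmem37 (0.933) and Ugt1a7c (0.924), over the same 16 libraries. C1qc is the third C1q chain and Cyba a subunit of the phagocyte oxidase. With Spearman's rho, 3 of these 5 were again among the nearest 5. The nearest to Csf1 were Tmem63a (0.867), Dnm2 (0.829), Fbn1 (0.822), Mast1 (0.821) and Usp5 (0.797), of which 2 were among the nearest 5 by rho.

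Of the genes that carry or modify the receptor's signal, 15 of 16 were tested, 8 rose and 2 fell, with a median log2 fold change of 0.27; of all tested genes, 25.6% rose and 22.7% fell. With total counts 13 were called higher and 1 lower. On that scale most calls over all tested genes were higher too, and the median of all tested genes was 0.32. The kinases Lyn and Syk, phospholipase Plcg2 and the phosphatases Inpp5d and Ptpn6 were among those that rose. Plcg2 lay between 4.60 and 7.26 CPM in the wild type and between 7.99 and 13.2 CPM in the knockout, without overlap (log2 fold change 0.86, SE 0.114; edgeR, adjusted p = 3.96e-06). Lyn rose by 0.52 (adjusted p = 4.67e-05). The adaptor Tyrobp (0.10) and the lineage factor Spi1, which encodes PU.1 (0.21), were not called. The fall was largest in Sdc1, a heparan sulfate proteoglycan that also binds IL-34 and is made by many cell types: it went from between 150.7 and 304.1 CPM to between 36.3 and 50.3 CPM (log2 fold change -2.44, SE 0.128, adjusted p = 1.04e-11). Ptpn6 (0.27, adjusted p = 0.0405) lost its call without any 1 of 10 libraries. Exons of Lyn and Ptpn6 overlap predicted genes on the other strand. Ptprz1, another reported IL-34 receptor, was not tested, at no more than 0.679 CPM in any library.

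Of 16 further macrophage markers, all tested, 8 rose, 1 fell and 7 were not called, with a median log2 fold change of 0.28. The 9 called of 16 stand beside 48.3% of all tested genes, of which 25.6% were higher and 22.7% lower. Mpeg1, the pore-forming perforin-2 of phagocytes, stood out. It lay between 9.60 and 25.4 CPM (median 18.9) in the wild type and between 49.6 and 83.4 CPM (median 70.0) in the knockout (log2 fold change 1.96, SE 0.204; edgeR, adjusted p = 4.42e-07). The galectin Lgals3 also rose without overlap (0.88, adjusted p = 3.82e-05), and so, with overlap, did the lysosomal protein Laptm5 (0.56) and the fractalkine receptor Cx3cr1 (1.07, adjusted p = 0.000584). The efferocytosis receptor Mertk fell by 0.51 on the log2 scale (adjusted p = 0.00134), though not with total counts (-0.19, adjusted p = 0.129). Lgals3 is made by many cell types besides macrophages, and exons of Cx3cr1 overlap Gm33858 on the other strand. With total counts 13 of the 16 were called higher and none lower. Most calls over all tested genes were higher on that scale too, where the median of all tested genes was 0.32.

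Markers of resident and perivascular macrophages fell more often than they rose on the TMM scale. Of 13 tested of 14, 7 fell and 2 rose, with a median log2 fold change of -0.25, and with total counts 3 were lower and 4 higher. Among all tested genes 22.7% fell and 25.6% rose on the TMM scale, and with total counts the median of all tested genes was 0.32. Lyve1, the hyaluronan receptor of these cells and of lymphatic endothelium, lay between 63.1 and 119.2 CPM (median 89.6) in the wild type and between 28.3 and 47.3 CPM (median 31.0) in the knockout, without overlap (log2 fold change -1.43, SE 0.137; edgeR, adjusted p = 8.86e-08). Timd4, a phosphatidylserine receptor of long-lived macrophages, went from between 2.12 and 6.17 CPM to between 0.921 and 1.37 CPM (-1.75, adjusted p = 8.09e-07). Folr2, the folate receptor beta, went from between 22.2 and 31.8 CPM to between 10.3 and 17.8 CPM (-0.87, adjusted p = 4.29e-06). Cbr2, F13a1, Pf4 and Maf also fell on the TMM scale, but with total counts only Lyve1, Timd4 and Folr2 were called lower and Maf turned to 0.05. The lectin gene Clec10a rose by 0.60 (adjusted p = 0.00166). The chemokine gene Ccl8 rose from at most 3 counts in every wild type library to between 2.19 and 9.49 CPM in the knockout (adjusted p = 4.16e-09). Stab1, Siglec1, Vsig4 and Mgl2 were not called. Relative to Csf1r, Lyve1 counts were 0.218 to 0.534 in the wild type and 0.0994 to 0.159 in the knockout. The ratio of Timd4 to Csf1r was 0.00696 to 0.0276 and 0.00376 to 0.00561, also without overlap, whereas that of Folr2 overlapped, at 0.0626 to 0.143 and 0.0441 to 0.0731. Of 5 lymphatic endothelial markers, 3 were tested and 1 was called, Ccl21a, which fell. The untested Flt4 was at most 0.112 CPM in the wild type and between 0.0850 and 4.90 CPM in the knockout, and with no count filter 2 of the 5 were called higher and 1 lower.

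**Figure D4:**
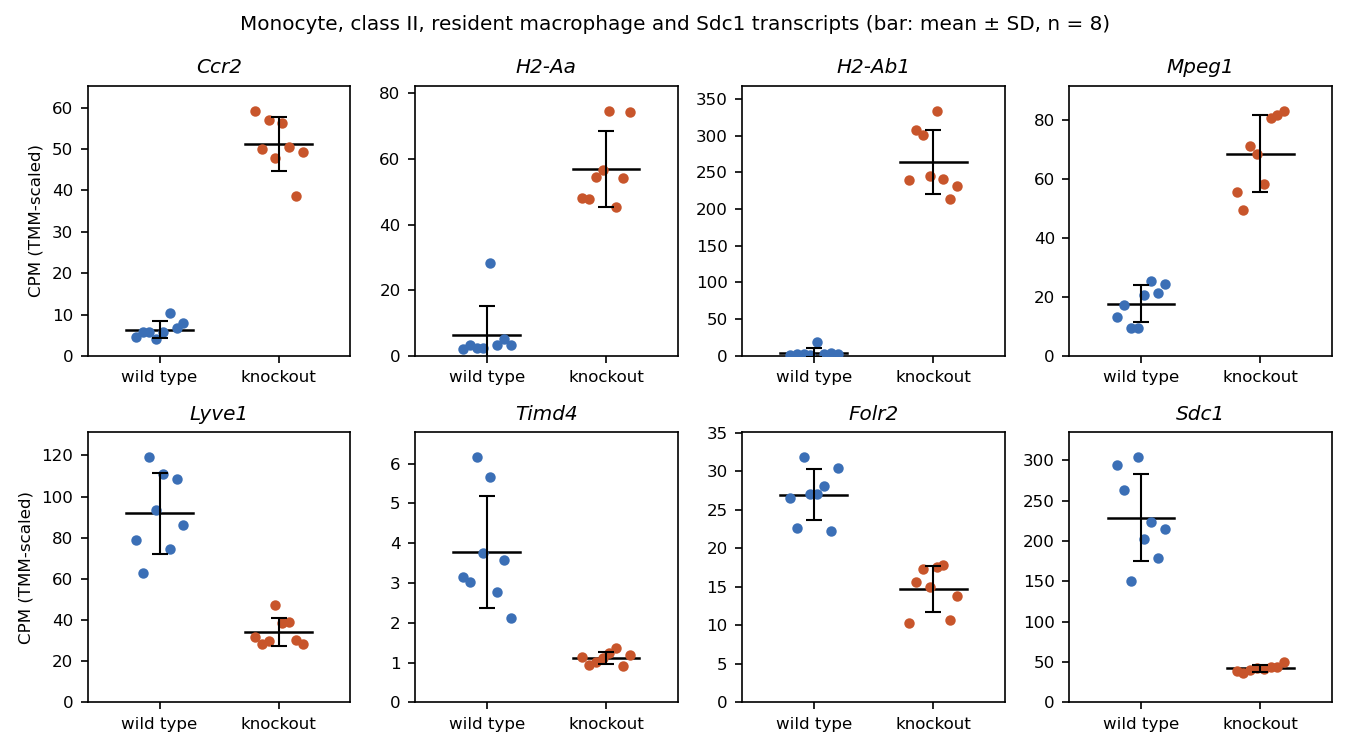
Level in CPM (TMM-scaled) of the monocyte receptor gene Ccr2, the class II genes H2-Aa and H2-Ab1, Mpeg1, the resident macrophage markers Lyve1, Timd4 and Folr2, and Sdc1 in 8 wild type and 8 knockout libraries; bars are mean ± SD. No gene shown overlaps between the genotypes, and wild type library 5 stands above the other wild type libraries in H2-Aa (28.2 CPM) and H2-Ab1 (19.4 CPM).

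Of 8 monocyte markers, 2 were tested and both rose, as did 25.6% of all tested genes. Ccr2, the chemokine receptor with which monocytes leave the blood, lay between 4.11 and 10.3 CPM (median 5.82) in the wild type and between 38.7 and 59.3 CPM (median 50.3) in the knockout. The groups were far apart, and the log2 fold change was 3.01 (SE 0.154; edgeR, adjusted p = 9.22e-12). Ace, which endothelium makes too, rose by 1.06 (adjusted p = 0.000263). Levels of the other 6 were low: Itgal reached at most 2.38 CPM, Ly6c2 0.723 CPM and Chil3 1.21 CPM in any library. Plac8 had no count in any wild type library.

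Class II genes, with which macrophages and dendritic cells present antigen, rose in nearly all members of the list. The 8 tested had 7 that rose and 1 that fell, with a median log2 fold change of 2.39. Among all tested genes 25.6% rose and 22.7% fell. The 1 that fell was the co-stimulatory ligand gene Cd86 (-0.58, edgeR, adjusted p = 0.000169, and with total counts -0.28, adjusted p = 0.0516). H2-Aa, the class II alpha chain, lay between 2.02 and 28.2 CPM (median 3.28) in the wild type and between 45.2 and 74.7 CPM (median 54.3) in the knockout (log2 fold change 3.20, SE 0.514; edgeR, adjusted p = 0.000103). H2-Ab1, the beta chain, lay between 0.976 and 19.4 CPM (median 2.27) and between 213.5 and 334.1 CPM (median 242.6), a log2 difference of 5.94 (SE 0.544, adjusted p = 2.89e-07). H2-Eb1 rose by 3.53 (adjusted p = 1.44e-05), H2-DMb1 by 1.69 (adjusted p = 1.07e-06) and Ciita, the transactivator of these genes, by 1.74 (adjusted p = 2.06e-05). Wild type library 5 alone set the upper end of the wild type ranges: leaving out that library gave a log2 fold change of 4.19 for H2-Aa, 6.90 for H2-Ab1 and 4.35 for H2-Eb1. DESeq2's Wald test gave 3.96 for H2-Ab1 and limma-voom 6.61. The genes did not move in proportion: H2-Ab1 counts were 0.424 to 0.903 times those of H2-Aa in the wild type and 3.12 to 6.43 times in the knockout, whereas Cd74, the invariant chain, was 1.48 to 2.39 and 1.67 to 2.47 times H2-Aa. Class II genes differ in sequence between mouse strains, and whether the genotypes share a strain background is not given in the labels, so the part of this in the counts was not tested. Exons of Ciita overlap Dexi on the other strand.

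Neutrophil and lymphocyte markers were scarce, whereas the dendritic cell markers summed to 19.2 to 45.9 CPM in the wild type and 20.3 to 25.5 CPM in the knockout. Most of that sum came from Zbtb46 (means of 12.8 CPM in the wild type and 11.6 CPM in the knockout) and Clec9a (11.2 and 6.24 CPM). Exons of Clec9a overlap those of Clec1b on the same strand. The 6 pan-leukocyte genes were all called higher, against 25.6% of all tested genes, with a median log2 fold change of 0.96. Cd53 passed only narrowly (0.28, edgeR, adjusted p = 0.0457). It was not called with DESeq2 size factors (0.0528), with DESeq2's Wald test (0.0564), with no count filter (0.0540), or without any 1 of 11 libraries (up to 0.106). Ptprc, which encodes CD45, went from between 29.15 and 37.1 CPM to between 49.7 and 71.6 CPM (0.87, SE 0.0751; edgeR, adjusted p = 1.13e-08). Exons of Coro1a and Cd52 in this list overlap genes on the other strand. Of the dendritic cell markers 4 of 7 were tested. Itgax, the integrin CD11c, rose (3.52, edgeR, adjusted p = 4.35e-06, and 4.16 without wild type replicate 7). In the wild type 6 of 8 libraries held at most 3 counts of Itgax, so it passed the expression filter through the knockout (2.38 to 4.67 CPM). Siglech (-1.82) and Clec9a (-0.86) fell, Clec9a not with total counts (adjusted p = 0.0754). Of 8 neutrophil, 7 mast cell and 8 lymphocyte markers 1 each was tested and called higher (Csf3r 1.81, Kit 3.44 and Cd4 0.88), against 25.6% of all tested genes. Their medians were 0.763, 0.326 and 0.678 CPM in the wild type and 2.52, 5.975 and 1.49 CPM in the knockout. Genes this scarce in the wild type can pass the expression filter through the knockout, so their shared direction is not a separate result. Kit was at 2.40 with the muscle markers in the model, and Cd4 lost its call without wild type replicate 6 (adjusted p = 0.0521) or knockout replicate 8 (0.0620). Summed levels of the neutrophil markers were at most 6.75 CPM and those of the lymphocyte markers at most 3.73 CPM in any library; Ly6g had no count in any library, and Cd3e did not exceed 0.255 CPM.

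Of 10 genes of macrophage activation 7 were tested, 5 rose and 1 fell, with a median log2 fold change of 1.23. Among all tested genes 25.6% rose and 22.7% fell. Nos2, the inducible nitric oxide synthase, is also a target of HIF1α and is not particular to macrophages. It went from between 0.303 and 1.19 CPM to between 30.95 and 93.1 CPM (log2 fold change 6.60, SE 0.260; edgeR, adjusted p = 7.97e-13). Ptgs2 rose by 2.38 (adjusted p = 2.80e-07), Il1rn by 2.69 (adjusted p = 2.10e-07) and Tnf by 1.23 (adjusted p = 0.000553), whereas Retnla fell by 1.32 on the log2 scale (adjusted p = 0.00630) and Arg1 was not called (0.20). Il1b, Il6 and Il10 were too low to be tested, at no more than 1.19, 0.824 and 0.425 CPM.

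**Figure D5:**
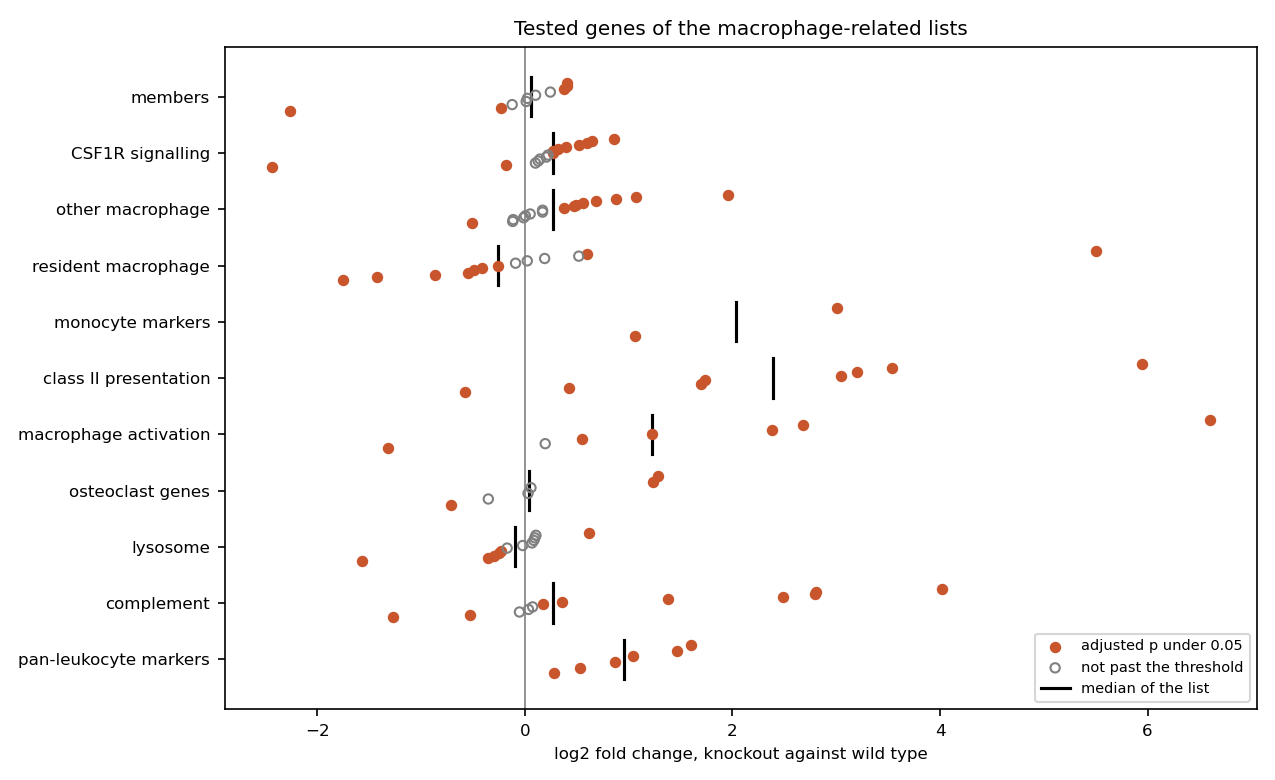
Log2 fold change between knockout and wild type of every tested gene of 11 lists (the 10 members, CSF1R signalling, other macrophage, resident macrophage, monocyte, class II, activation, osteoclast, lysosome, complement and pan-leukocyte genes); filled points passed the threshold, and black ticks are medians. Among these lists, class II genes have the highest median (2.39); endothelial (3.41) and erythroid (3.63) markers, which are not plotted, have higher ones. The resident macrophage markers have a median of -0.25 and the members one of 0.06.

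The remaining lists touch what CSF1 and the markers do elsewhere. CSF1 also drives the formation of osteoclasts. From 12 osteoclast genes 6 were tested, 2 rose and 1 fell, near the 48.3% of all tested genes that were called. The decoy receptor gene Tnfrsf11b, made by stromal cells, rose by 1.23 (edgeR, adjusted p = 1.13e-06) and Atp6v0d2 by 1.28. The protease gene Ctsk, which tendon fibroblasts make too, fell by 0.71 on the log2 scale (edgeR, adjusted p = 4.34e-05). Calcr, Dcstamp, Oscar and Ocstamp, which mark the mature cell, did not exceed 1.02 CPM in any library. Of 12 lysosomal genes, the compartment of Cd68 and Lyz2, 1 rose (Ctsa, 0.62, adjusted p = 1.16e-05) and 5 fell on the TMM scale, with a median of -0.10, near the share of all tested genes called. With total counts, where the median of all tested genes was 0.32, the split turned to 6 higher and 1 lower (Ctsl). On the TMM scale Ctsl fell by 1.57 on the log2 scale (adjusted p = 1.82e-09), and exons of both overlap other genes. Of 13 complement genes 12 were tested, 7 rose and 2 fell, against 25.6% and 22.7% of all tested genes. While C1qa, C1qb and C1qc were not called, the proteases of the same C1 complex rose without overlap. C1s1 went from between 5.27 and 12.3 CPM to between 98.35 and 184.9 CPM (log2 fold change 4.02, edgeR, adjusted p = 2.60e-10). C1ra rose by 2.49 (edgeR, adjusted p = 1.70e-10). C3 (2.80, adjusted p = 3.23e-11) and C4b (2.81, adjusted p = 2.10e-11), the next components of the cascade, rose as well; fibroblasts make all 4 of these. Cfb, of the alternative pathway, fell without overlap by 1.27 on the log2 scale (adjusted p = 1.20e-08). Exons of C1s1 overlap Gm16567 on the other strand.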

How the data were processed

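RNA-seq of 16 tail tendon fascicle libraries, 8 of each genotype, was analysed. The authors deposited 1 table of raw counts per library, in a single column of counts per the file headers; the submitters' processing notes name featureCounts, kallisto and GRCm39 without their roles. The annotation, the strand of counting and read filters are not given in the sources used here. Of 25719 identifiers, 25614 had a symbol in the supplied table. Chromosomes, exon lengths and overlaps come from GENCODE M21 (GRCm38), promoters from RefSeq.

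Counts were tested in edgeR 4.0.16 by its quasi-likelihood F test (R 4.3.3; robust fit, TMM, default expression filter, genotype as the only term, two-sided); 14803 genes passed the filter, and p-values were adjusted over them by Benjamini-Hochberg. The SE is the log2 fold change over the root of F. Log2 CPM used a prior count of 2. Genes scarce in the wild type, such as Ccl8, Itgax, Il1rn, Nos2, Csf3r and Kit, could pass the filter through the knockout alone, and Ccl21a through the wild type alone. In simulated data with 200 genes changed 2-fold the fit called 93.5% of them, and 4.10% of its calls were unchanged genes. Smaller changes, such as those of Csf1, Lyz2, Adgre1 and Cd163, and a change in as large a share of genes as seen here were not simulated. Total counts of 10488355 to 18753254 put 3 counts at 0.160 to 0.286 CPM before scaling; this covers counting error only. Nothing says that the libraries are separate mice, so p-values measure the spread between libraries. The ligand ratio added 0.5 to each count. Named were, per list, up to 4 called genes of smallest p, and others chosen after their values were seen. Some genes of the lists are counted but not reported here by name. Members and lists were chosen with earlier results of these data known. Alternatives used DESeq2 1.42.0 and limma 3.58.1.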

Additional observations from a re-analysis of the deposited data

Results flagged for a closer look

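Within the wild type, library 5 stood above the other 7 in 4 genes, by a gap to its nearest neighbour that was large against the range of the group. Its log2 CPM was 4.83 for H2-Aa, 4.29 for H2-Ab1, 5.95 for Cd74 and 5.00 for the kinase gene Lyn. In CPM, H2-Aa was at 28.2 against 2.02 to 5.07 in the other wild type libraries, and Cd74 at 61.8 against 3.42 to 10.6. The same library had the highest sum of skeletal muscle markers in the wild type, 4769 CPM, and its part in these values was not tested. No member stood apart in this way. In all, 106 groups of 8 libraries were checked for 53 genes, where chance would mark about 1 in 20, or 5.3. H2-Aa and Cd74 were added to the 53 outside the rule that named the others, and related genes are not independent. The flags therefore cannot be weighed against the 5.3.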

How the results depend on the processing

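Over 25 alternatives, Il34, Lyz2 and Adgre1 kept their direction and their call, and the number of genes called stayed between 6149 and 9685. Of the 10 genes, 5 were called as reported, 8 with total counts, and 3 to 6 when 1 library was left out (3 without knockout replicate 6). With total counts Csf1 turned to 0.066 and Csf1r to 0.19. C1qa, near 0, turned to -0.0019 with DESeq2 size factors, to -0.0021 with DESeq2's Wald test and to -0.045 without the 4 libraries of high Scx, and ran from -0.047 to 0.082 when 1 library was left out, where Cd68 ran from -0.035 to 0.12. The cause was not tested. The removal of the 4 libraries of high Scx, chosen after seeing the data, left 6149 genes and 4 members called with fewer samples. Replicate numbers did not pair the samples (deviations of same-numbered libraries correlated over 0.1 in 3 of 8 pairs, and 1 wild type library was most like its own number). With the replicate block 7010 genes and 5 members were called, with Cd163 lost (0.36, adjusted p = 0.105) and C1qb gained (0.24, adjusted p = 0.0419). The ligand ratio differed by 2.01 to 2.34 on the log2 scale over 19 alternatives. The exact permutation p ran from 0.000155 to 0.000311 when 1 library was left out. With the replicate block the difference was 2.18 (exact sign-flip test on same-numbered libraries, p = 0.00781, the smallest that test can give). Il34 rests on 20 to 161 counts per knockout library. Marco, Plac8 and other untested genes did not pass the expression filter of the main fit. Not all untested genes were scarce: Tie1 had a median of 12.7 CPM in the knockout and at most 0.2985 CPM in the wild type.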

Other observations

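The genes whose deviations from the genotype mean were most like those of Il34 over the 16 libraries were Sort1 (Pearson r 0.968), Prkch (0.951), Adamts12 (0.941), Cd93 (0.932) and Esam (0.930), a list added after the values of Il34 were seen. None of the 5 was among the nearest 5 by Spearman's rho. Cd93 and Esam are known from endothelium, and the libraries share their depth and scaling.

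Marco, a scavenger receptor of resident macrophages, did not pass the expression filter and was not tested. It had no count in 6 wild type libraries and at most 3 counts in the others, and lay between 0.405 and 3.13 CPM in the knockout.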
